A study of Mus musculus with 4 samples.

Results

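Type 2 conventional dendritic cells (cDC2) of the mouse colon were picked out of single-cell libraries by a count rule and described across tissue and genotype. A cell was a member when Cd209a, Flt3, Klrd1 and Tnip3 together had at least 4 UMIs (unique molecular identifiers, 1 per captured RNA molecule) and H2-Ab1, a chain of MHC class II, at least 10. A member also had at most 14 UMIs of the complement genes C1qa, C1qb and C1qc, which mark macrophages, and at most 1 UMI each of Xcr1 plus Clec9a (type 1 dendritic cells), of Fscn1 (migratory dendritic cells) and of Cd79a (B cells). The rule took 1289 of the 13805 cells that had at least 200 genes, at most 10% mitochondrial UMIs and at least 2000 UMIs, out of 17905 barcodes in all. Members were thus chosen by the UMI counts of these genes, so their levels are a description and support nothing.

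Conventional dendritic cells take up antigen and present it to T cells. The type 2 branch carries CD11b and SIRPα, presents antigen mainly to CD4 T cells, and depends on the growth factor receptor FLT3 and on the transcription factor IRF4. CSF2 (GM-CSF) signals through a receptor made of CSF2RA and CSF2RB, via JAK2 and STAT5, and in the gut it is made largely by innate lymphoid cells of the lymphoid follicles and sensed by the phagocytes around them.

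The cells came from colon lamina propria, the connective tissue beneath the epithelium, or from its solitary isolated lymphoid tissues (SILT), which are small clusters of lymphoid cells in the gut wall, after magnetic enrichment for CD11b. The mice were Csf2+/+ (wild type) or Csf2-/-, and both genotypes also carried 1 CX3CR1-GFP and 1 CCR2-RFP reporter allele. No treatment was given, and age, strain and the pooling of the 5 mice named for the series are not stated in the labels used here. Each of the 4 groups was 1 library, so there is no replicate error and no test: every range in parentheses after a value is its 95% interval and covers counting error alone, and mouse and library differences cannot be told apart from genotype and tissue. The study's title names a CSF2-dependent macrophage niche of SILT, and the comparisons below give the dendritic cells of the same libraries.

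The 379 members from wild-type lamina propria carried 5858228 UMIs (median 14541 per cell), the 395 of wild-type SILT 4590376 (median 10577), the 289 of Csf2-/- lamina propria 3202174 (median 10919) and the 226 of Csf2-/- SILT 2304225 (median 9611). Levels are in CPM, the UMIs of a gene over all UMIs of a library's members, times 1000000. In the members, Xist stood at 339.7, 217, 958 and 663 CPM in that order and the Y-linked Ddx3y at 68.3, 42.7, 27.2 and 28.6 CPM, so RNA of both sexes was present in every library and the mix moved with genotype. Its part in the genotype comparisons was not tested. Lars2 was at 575 CPM in wild-type lamina propria and at 157, 154 and 128 CPM in the other libraries, and in endothelial cells of the same libraries it was at 691, 225, 239 and 186 CPM, so the wild-type lamina propria library stood apart in both cell types for this gene, and no comparison of genotypes in lamina propria or of tissues in wild type can be made without it. Of the barcodes of the 4 libraries, 37 occurred in a pair of libraries, and none of these was a member in both.

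Of the 4 genes that chose the members, Cd209a was the most abundant, at 978, 655, 1046 and 786 CPM in lamina propria and SILT of wild type and then of Csf2-/-. Klrd1 (CD94), a lectin-like receptor chain of NK cells and some dendritic cells, was at 283, 460.1, 566 and 699 CPM, and Tnip3, an NF-κB regulator, at 463, 235, 535 and 300.3 CPM. Flt3 was the scarcest, at 70.8 to 152 CPM.

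A cDC2 lectin gene outside the rule was detected in most members, and the label held less well at the edge of the rule. Clec10a, a C-type lectin of cDC2 that the rule did not use, had a UMI in 68.9%, 52.9%, 73.7% and 65.0% of members in lamina propria and SILT of wild type and then of Csf2-/-. Endothelial cells of the same libraries, which should lack it, had a UMI of it in at most 1.44%. That contrast does not tell members from other myeloid cells. Zbtb46, the transcription factor shared by conventional dendritic cells, was at 56.0, 45.3, 49.3 and 50.8 CPM. Mertk, which defines tissue macrophages, was at 2.05 and 3.05 CPM in the wild-type libraries and at 0 in both Csf2-/- libraries. It is 1 of 12 genes on the macrophage marker list, and the list as a whole was not absent. Led by Apoe, it summed to 871, 735, 1560.5 and 1115 CPM in the order above. In that order 174, 85, 95 and 53 members held 10 or more such UMIs. Endothelial cells of the same libraries held the list at 467 to 620 CPM. Members that just passed, with 4 or 5 UMIs of the 4 summed genes, numbered 18, 58, 24 and 19 and had Clec10a at 171, 52.9, 68.4 and 55.1 CPM. Cells just outside, with 3 UMIs, numbered 20, 32, 13 and 19 and had it at 57.7, 56.4, 92.8 and 116 CPM. Both edges carried much RNA of the lysozyme gene Lyz2, abundant in monocytes and macrophages, between 3215 and 14949 CPM, while members with 20 or more UMIs had 819 to 1553 CPM.

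RNA of other cell types was present in the members and differed between libraries. The 8 endothelial markers summed to 431, 802, 148 and 101 CPM in the order above, with 8, 22, 2 and 1 members holding 10 or more such UMIs. The 8 epithelial markers summed to 711 CPM in wild-type SILT and to at most 62.5 CPM elsewhere, where 2, 5 and 6 of the 8 were at 0. The 8 B and plasma cell markers, led by Igkc, summed to 1343 and 1077 CPM in SILT and to 352 and 402 CPM in lamina propria. Pax5 was at 0 in all 4, and the endothelial cells of the same libraries held these markers at 1338, 613, 131 and 157 CPM in that order. Results that rest on a few such cells are marked where they come up.

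The cDC2 took a larger share of cells in the Csf2-/- libraries. They were 9.78% (95% interval 8.86 to 10.8) of kept cells in wild-type lamina propria and 16.1% (14.5 to 17.9) in Csf2-/- lamina propria. In SILT they were 6.42% (5.82 to 7.06) and 11.4% (10.0 to 12.9). Among gated myeloid cells (cDC2, type 1 and migratory dendritic cells, monocytes and macrophages), the shares were 16.4% and 24.4% in wild-type and Csf2-/- lamina propria, and 14.5% and 18.1% in SILT. Endothelial cells with Plac8 RNA could pass the monocyte gate and so count in that denominator. Among gated dendritic cells alone the order was another: 91.3% and 85% in lamina propria and 78.5% and 81.6% in SILT. The macrophage gate, whose cells fill much of the denominator, held 1283 cells in wild-type and 424 in Csf2-/- lamina propria, and 1358 and 550 in SILT, and the CD11b enrichment, depth and barcode calling of each library also set such shares. Among cells of 4000 to 12000 UMIs the wild-type lamina propria share was 5.20%, below the 7.38% of wild-type SILT, so the order of the tissues in wild type turned with depth; Csf2-/- was above wild type within each tissue in all 13 settings.

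**Figure D1:**
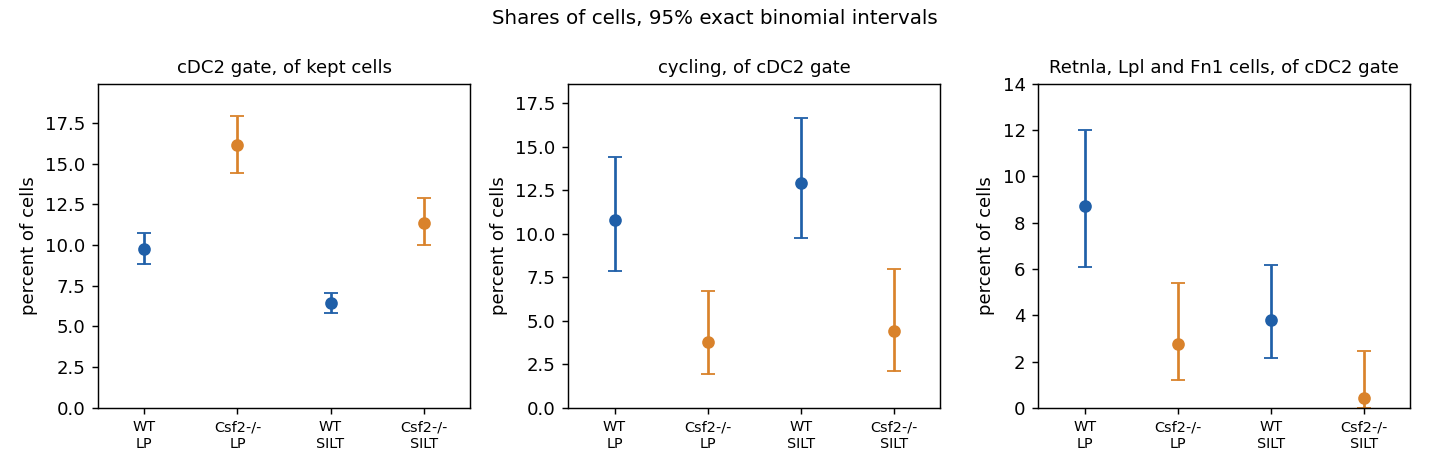
Percent of cells (vertical axes) in each of the 4 libraries, wild type in blue and Csf2-/- in orange, with exact binomial 95% intervals as bars. The left panel gives cDC2 among kept cells (6.42% to 16.1%), the middle panel members with 5 or more UMIs of a cell cycle panel (3.81% to 12.9%), the right panel members with 10 or more UMIs of Retnla, Lpl and Fn1 (0.442% to 8.71%).

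The first comparison asked what the members lacked or gained in mice without Csf2. In lamina propria, 185 of 5673 compared genes (3.26%) were at least 1.5-fold higher and 516 (9.10%) lower by the same factor or more in Csf2-/- members, with a median log2 ratio over all compared genes of -0.08. In SILT, 405 of 5435 (7.45%) were higher and 401 (7.38%) lower, with a median of -0.01. Scaling by edgeR's TMM factors changed the split to 278 higher and 344 lower in lamina propria and 575 and 335 in SILT, and CPM without mitochondrial and ribosomal genes gave 360 and 430 in lamina propria. A gene was compared where its mean level reached 20 CPM in the pair of libraries and its UMIs summed to 30 or more. Among the genes far lower in both tissues were the chemokine gene Ccl17, the STAT5 feedback gene Cish, the enzyme gene Gda and the surface genes Cd24a, Mgl2 and Cd200r1. Among those at least 1.5-fold higher in both were the lectin genes Clec12a, Clec4a1 and Clec4a3, the chemokine receptor gene Cxcr4 and the transcription factor genes Cebpb, Bcl11a and Pou2f2.

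Ccl17 encodes a chemokine that draws CCR4-bearing T cells, and dendritic cells are a main source of it. Its level in members was 168 CPM in wild-type and 1.25 CPM in Csf2-/- lamina propria, and 86.7 CPM in wild-type and 12.2 CPM in Csf2-/- SILT. In lamina propria 90 of 379 wild-type members held 987 UMIs and 4 of 289 Csf2-/- members held 4, a level 135-fold lower (52.5 to 496), and in SILT 74 of 395 wild-type members held 398 and 4 of 226 Csf2-/- members held 28, 7.14-fold lower (4.86 to 10.9). Of the 28 UMIs of Csf2-/- SILT, 25 lay in 1 cell that had no Cd209a UMI. Among members with at least 1 Cd209a UMI the Csf2-/- level in SILT was 90.6-fold lower. The wild-type UMIs were unevenly spread, with up to 194 in 1 cell, so the counting intervals are too narrow. In the wild-type libraries the members held 71.4% (lamina propria) and 59.3% (SILT) of all Ccl17 UMIs of kept cells. At an equal depth of 2000 UMIs per cell, Ccl17 was seen in 10.3% and 7.34% of wild-type members in lamina propria and SILT, and in 0 of 289 and 1 of 226 Csf2-/- members, where 3 counts in 289 would be 1.04% and the exact upper limit of 0 is 1.27%, both for the thinned cells only. Without thinning the shares were 23.7%, 18.7%, 1.38% and 1.77%, and endothelial cells had it in at most 0.311%.

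Cish encodes CIS, a feedback inhibitor that STAT5 induces downstream of cytokine receptors. Its level was 21.2 CPM in wild-type and 1.25 CPM in Csf2-/- lamina propria, and 11.5 CPM in wild-type and 1.30 CPM in Csf2-/- SILT. The Csf2-/- values rest on 4 and 3 UMIs, each in a different cell, against 124 UMIs in 70 cells and 53 in 42 cells of wild type. That put the ratio of Csf2-/- to wild type at 0.0590 (0.0158 to 0.155) in lamina propria and 0.113 (0.0225 to 0.348) in SILT. Cish was below the mean of 20 CPM asked of compared genes, and it is named here because it belongs to the list of CSF2 signalling genes and its values had been seen. In monocytes of the same libraries the ratio was 0.958 (0.659 to 1.38) in lamina propria and 1.18 (0.759 to 1.79) in SILT, and in endothelial cells 1.04 and 1.17. Endothelial cells had a Cish UMI in 10.1% to 17.9%, so a share near the 18.5% and 10.6% of wild-type members is not particular to them. In macrophages it was 0.201 (0.0533 to 0.534) and 0.245 (0.0478 to 0.791) on wild-type levels of 4.30 and 1.93 CPM. The monocyte gate did not keep out endothelial cells. In Csf2-/- lamina propria monocytes held 48 and endothelial cells 91 of 136 Cish UMIs, so some cells lay in both gates. Their part in the monocyte ratios was not tested.

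The promoters of these 2 genes are shown because STAT5 binds a spaced palindrome, TTCNNNGAA, and both genes were far lower without Csf2. They are RefSeq sequences on GRCm38.p6, plus strand for both genes, from 250 bases before to 50 after the annotated start, with matches to TTCNNNGAA, or to TTCNNNNGAA, the wider spacing known for STAT6, in capitals. Both motifs read the same on either strand. The Cish window is chr9:107296409-107296708 and the Ccl17 window chr8:94810203-94810502.
Cish: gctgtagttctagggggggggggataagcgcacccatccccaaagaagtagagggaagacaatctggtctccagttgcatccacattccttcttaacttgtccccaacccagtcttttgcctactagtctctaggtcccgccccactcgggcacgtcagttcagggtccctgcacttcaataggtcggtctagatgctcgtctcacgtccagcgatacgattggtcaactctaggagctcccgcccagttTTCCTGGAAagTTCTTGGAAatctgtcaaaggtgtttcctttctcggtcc
Ccl17: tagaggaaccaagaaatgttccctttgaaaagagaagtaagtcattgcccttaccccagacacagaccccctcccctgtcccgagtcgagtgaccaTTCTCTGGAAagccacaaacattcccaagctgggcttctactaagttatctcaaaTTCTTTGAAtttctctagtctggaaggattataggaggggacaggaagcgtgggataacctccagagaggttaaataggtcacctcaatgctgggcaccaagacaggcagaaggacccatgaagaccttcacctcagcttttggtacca
The Cish window held 2 matches to TTCNNNGAA, at bases 1 and 12 after the start. The Ccl17 window held 1 match to TTCNNNNGAA that begins 154 bases before the start and 1 to TTCNNNGAA that begins 99 before it. The windows of Gda (chromosome 19) and Mgl2 (chromosome 11), which were also lower in both tissues, held neither. Of the 32851 promoter windows of the same length in the table, 8.30% held TTCNNNGAA, 6.95% TTCNNNNGAA and 14.6% either, so a match is common and is a description of the sequence, not a bound site.

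**Figure D2:**
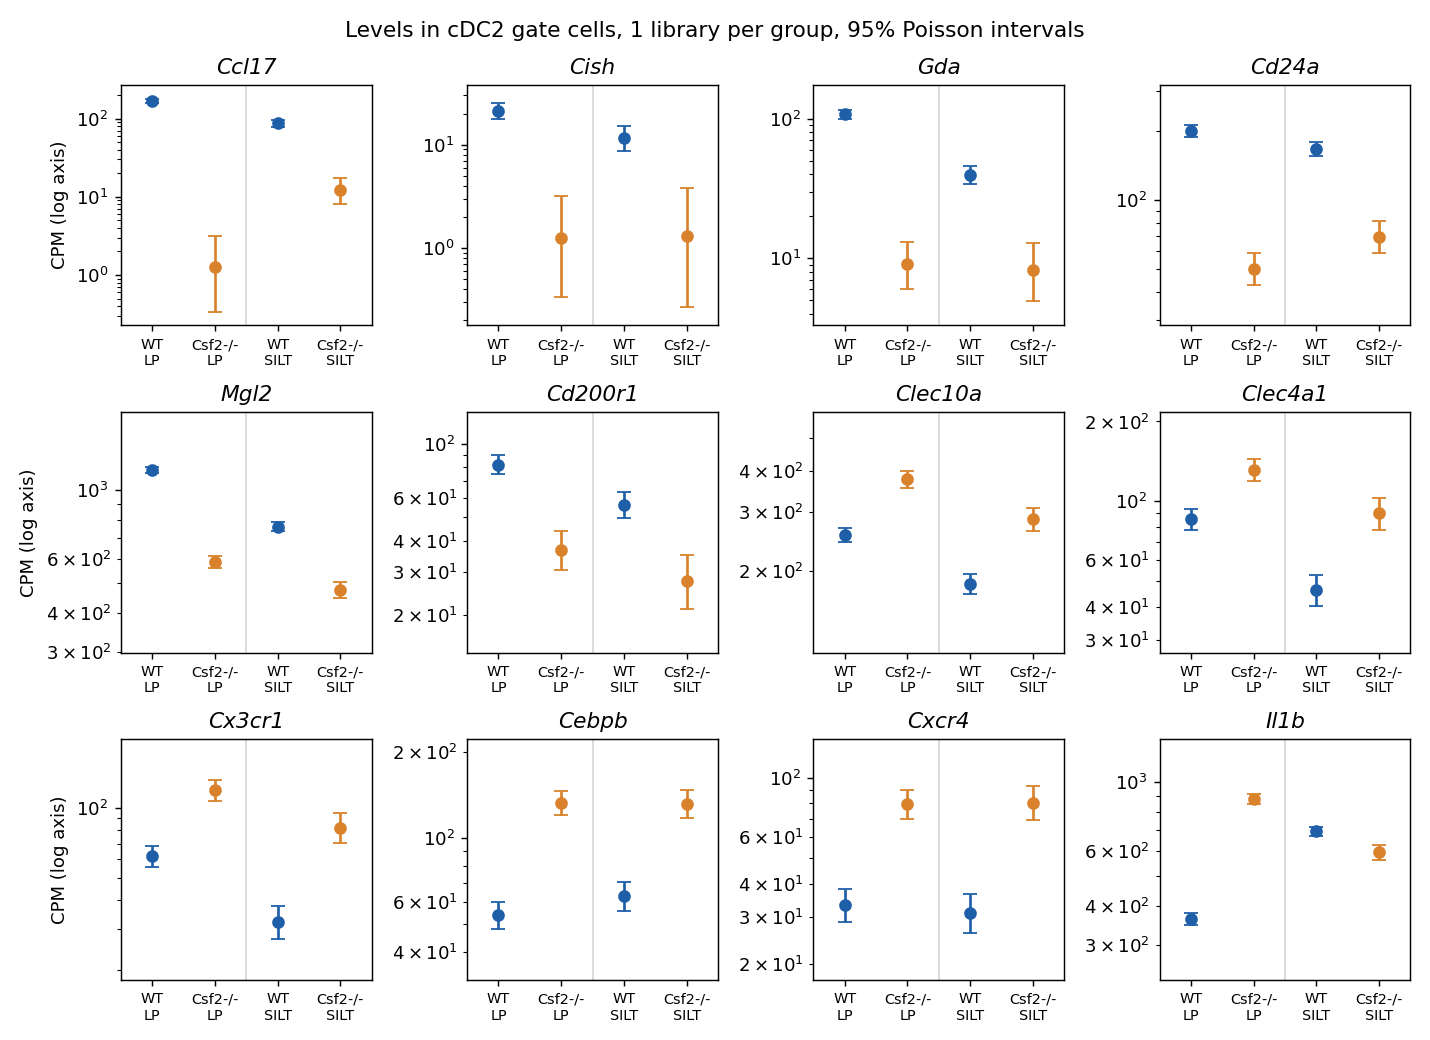
Levels of 12 genes in cDC2 members (CPM, logarithmic vertical axes whose range differs by gene), 1 point per library with its exact Poisson 95% interval, wild type (WT) in blue and Csf2-/- in orange, lamina propria (LP) left and SILT right of the grey line. Ccl17, Cish, Gda, Cd24a, Mgl2 and Cd200r1 lie lower in Csf2-/- in both tissues, Clec10a, Clec4a1, Cx3cr1, Cebpb and Cxcr4 higher, and Il1b is higher in lamina propria only (365 and 878 CPM, against 694 and 594 CPM in SILT).

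Surface genes that help to define cDC2 differed in both directions. Of the 17 compared genes in the list of cDC2 surface genes, 5 were at least 1.5-fold higher and 3 lower in Csf2-/- lamina propria, with a list median of 0.32 log2, and again 5 and 3 in SILT, with a median of 0.35. Over all compared genes, 3.26% were higher and 9.10% lower in lamina propria (median -0.08) and 7.45% and 7.38% in SILT (median -0.01). The same 3 genes, Mgl2, Cd24a and Cd200r1, were the lower ones in both tissues. Mgl2 (CD301b), a lectin for galactose-type sugars, stood at 1161 CPM in wild-type and 586 CPM in Csf2-/- lamina propria, and 762 CPM in wild-type and 476 CPM in Csf2-/- SILT, a ratio of 0.505 (0.479 to 0.531) and 0.625 (0.583 to 0.669). Its close paralog Clec10a (CD301a) stood at 257 CPM in wild-type and 377 CPM in Csf2-/- lamina propria, and 184 CPM in wild-type and 286 CPM in Csf2-/- SILT, a ratio of 1.47 (1.36 to 1.58) and 1.55 (1.40 to 1.72). So Mgl2 was lower and Clec10a higher in Csf2-/- members of both tissues; how the counting split reads between these similar copies is not known, which leaves the size of either change uncertain. Among SILT members of 4000 to 12000 UMIs, the Clec10a ratio was 1.15.

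Cd24a, a glycosylated adhesion protein, was at 199.7 CPM in wild-type and 50.3 CPM in Csf2-/- lamina propria, and 167 CPM in wild-type and 69.4 CPM in Csf2-/- SILT. The ratio was 0.252 (0.212 to 0.297) in lamina propria and 0.416 (0.349 to 0.494) in SILT. Cd200r1, an inhibitory receptor of myeloid cells, was at 81.9 CPM in wild-type and 36.9 CPM in Csf2-/- lamina propria, and 56.2 CPM in wild-type and 27.3 CPM in Csf2-/- SILT, with ratios of 0.450 and 0.486. On the other side, Clec12a, an inhibitory lectin, was at 100.4 CPM in wild-type and 169 CPM in Csf2-/- lamina propria, and 81.0 CPM in wild-type and 128 CPM in Csf2-/- SILT. Clec4a1 and Clec4a3, lectins of the DCIR group, had ratios of 1.54 and 1.60 in lamina propria and 1.95 and 1.58 in SILT. They belong to a family of near copies, so their split is uncertain too. Cd300c2, an activating receptor, was 1.74-fold higher in lamina propria and 1.42-fold in SILT, where it is short of 1.5-fold.

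Cd7, an immunoglobulin-family surface protein best known on lymphocytes, was carried by a minority of members. Its level was 15.4 CPM in wild-type and 50.3 CPM in Csf2-/- lamina propria, and 58.6 CPM in wild-type and 98.5 CPM in Csf2-/- SILT, in 46, 53, 72 and 61 cells in that order. The members held 55.7% to 81.7% of the Cd7 UMIs of each library, although they were at most 16.1% of its cells. The genotype ratio was 3.27 (2.51 to 4.28) in lamina propria and 1.68 (1.40 to 2.01) in SILT, where it became 0.972 among members of 4000 to 12000 UMIs. T, NK and innate lymphoid markers summed to 72.0, 45.0, 137 and 141 CPM in the same order, so they were lower in Csf2-/- than in wild-type lamina propria, about level between genotypes in SILT, and higher in SILT than in lamina propria in both genotypes, as Cd7 was. In Csf2-/- SILT, 1 cell held 97 of the 324 UMIs of these markers, and Ccl5 was their top gene. The part of these markers in the Cd7 values was not tested.

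Further genes were lower in Csf2-/- members. Gda encodes guanine deaminase, an enzyme of purine breakdown, and was at 108 CPM in wild-type and 9.06 CPM in Csf2-/- lamina propria, and 39.9 CPM in wild-type and 8.25 CPM in Csf2-/- SILT. The ratio was 0.0839 (0.0558 to 0.122) in lamina propria, and in SILT it was 0.207 (0.122 to 0.332). In the gate of 3 UMIs instead of 4 the SILT ratio was 0.367. A Gda UMI was found in 34.6% of wild-type and 6.57% of Csf2-/- members of lamina propria. Endothelial cells of these libraries had one in 39.1% and 35.3%, so the wild-type share is no higher than theirs. At 2000 UMIs per cell the members' shares were 12.9% and 1.04% and those of endothelial cells 13.1% and 12.7%. Dst (dystonin, a cytoskeletal linker) had ratios of 0.121 in lamina propria and 0.293 in SILT, and Mtss1, an actin and membrane regulator, 0.312 and 0.417. Gfra2, a GDNF-family coreceptor, and Sh3pxd2b, a scaffold of podosomes, had ratios of 0.191 and 0.307 in lamina propria; in SILT, where both were below 20 CPM on average, the ratios were 0.256 (0.112 to 0.515) and 0.634 (0.420 to 0.935). Ccr1, a receptor for inflammatory CC chemokines, was at 114 CPM in wild-type and 59.0 CPM in Csf2-/- lamina propria, and 165 CPM in wild-type and 74.6 CPM in Csf2-/- SILT. Itgb1, the β1 integrin chain, and Cd81, a tetraspanin, were also lower, with ratios of 0.605 and 0.601 in lamina propria and 0.683 and 0.421 in SILT, the SILT value of Itgb1 being just short of 1.5-fold. Aldh1a2, the retinoic acid-producing enzyme of gut dendritic cells, was low throughout, with 16.9 and 4.06 CPM in lamina propria and 9.15 and 3.04 CPM in SILT, so that its ratios of 0.240 (0.124 to 0.430) and 0.332 (0.126 to 0.746) rest on 13 and 7 Csf2-/- UMIs.

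Among the 12 genes most clearly higher in Csf2-/- lamina propria were Cd7, Il1b, Cebpb, Rnaset2a, Cxcr4, Lst1, Xaf1, H2-T23, Arl5c, Nr4a2 and Tpcn1, with ratios of 2.08 to 3.27. Of the 12, 8 were also past 1.5-fold higher in SILT, where 7.45% of all compared genes were. Cxcr4, the receptor that holds leukocytes near CXCL12, was at 33.3 CPM in wild-type and 79.6 CPM in Csf2-/- lamina propria, and 31.2 CPM in wild-type and 80.3 CPM in Csf2-/- SILT, the wild-type levels being alike and both Csf2-/- levels more than 2-fold above them. Cebpb, a transcription factor of myeloid activation, was at 53.8 CPM in wild-type and 133 CPM in Csf2-/- lamina propria. In SILT it was at 62.7 CPM in wild type and 132 CPM in Csf2-/-. Its UMIs lay in 83, 82, 90 and 66 cells. After thinning to equal depth, Cebpb was seen in 7.39% of wild-type and 14.5% of Csf2-/- members of lamina propria. Endothelial cells of these libraries had it in 6.10% and 14.7%, so the rise is not particular to members there. In SILT the shares were 8.35% and 15.0% of members, and 6.90% and 9.09% of endothelial cells. Cxcr4 rose in endothelial cells too, from 1.33% to 2.90% in lamina propria and from 1.68% to 2.63% in SILT. H2-T23, which encodes the nonclassical class I molecule Qa-1, was 2.11-fold higher in lamina propria and 1.56-fold in SILT. Il1b, encoding the inflammatory cytokine IL-1β, was at 365 CPM in wild-type and 878 CPM in Csf2-/- lamina propria, and 694 CPM in wild-type and 594 CPM in Csf2-/- SILT, so it was 2.41-fold higher (2.28 to 2.55) in lamina propria and not higher in SILT, where the ratio was 0.857 (0.803 to 0.913).

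In SILT the 12 most clearly higher genes were Pou2f2, Grk3, Cxcr4, Cx3cr1, Adcy7, Kdm6b, Dusp2, Nfkbiz, Ppp1r9b, Bcl3, Bcl11a and Cebpb, with ratios of 2.04 to 2.75. Of these, 7 were past 1.5-fold higher in lamina propria, where 3.26% of all compared genes were. Pou2f2 (OCT2), a transcription factor of B cells and myeloid cells, was at 178 CPM in wild-type and 309 CPM in Csf2-/- lamina propria, and 87.1 CPM in wild-type and 240.0 CPM in Csf2-/- SILT. Bcl11a, a transcription factor needed for dendritic cell and B cell development, was at 103 CPM in wild-type and 176 CPM in Csf2-/- lamina propria, and 74.5 CPM in wild-type and 155 CPM in Csf2-/- SILT. Cx3cr1, the fractalkine receptor, was at 62.0 CPM in wild-type and 119 CPM in Csf2-/- lamina propria, and 32.2 CPM in wild-type and 82.0 CPM in Csf2-/- SILT; all mice carried a reporter allele at this locus and another at Ccr2, and whether the counts come from both alleles was not examined. For Grk3, Adcy7, Nfkbiz and Ppp1r9b the lamina propria ratios were 1.25, 1.21, 1.18 and 1.13, all short of 1.5-fold, while their wild-type SILT levels, which enter both comparisons, were 2.25, 2.48, 2.56 and 2.40-fold below those of wild-type lamina propria.

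The genes most clearly higher or lower in Csf2-/- members were also looked up in other gates of the same libraries. Of the 12 genes most clearly higher in SILT members, 12 were past 1.5-fold in monocytes, 10 in macrophages and 6 in endothelial cells of the SILT libraries. Over all genes compared in those gates by the same filter, 24.1%, 4.02% and 7.74% were past 1.5-fold higher. Of the 12 from lamina propria, 8, 10 and 6 were, against 6.52%, 3.47% and 2.32% of all genes. After thinning to equal depth, Cebpb, Cxcr4 and Kdm6b were seen in more Csf2-/- than wild-type endothelial cells of both tissues. For Kdm6b the wild-type and Csf2-/- shares were 13.3% and 20.5% in lamina propria and 10.3% and 19.9% in SILT. Il1b in lamina propria (0.883% and 0.670%) and Cx3cr1 in SILT (0.932% and 0.718%) did not rise there. The part of a shift shared by all cells of a library was not tested. The 12 most clearly lower in lamina propria members were Ccl17, Gda, Dst, Top2a, Gfra2, Lars2, Cd24a, Hist1h1e, Hist1h4d, Mtss1, Smc2 and Sh3pxd2b, of which 11 were also past 1.5-fold lower in SILT members, against 7.38% of all compared genes. Of these 12, 5 were past 1.5-fold lower in monocytes, 6 in macrophages and 5 in endothelial cells of lamina propria, where 8.66%, 6.45% and 2.25% of all genes were. Of the 12 most clearly lower in SILT members, 7 were past 1.5-fold lower in monocytes, 11 in macrophages and 2 in endothelial cells, against 14.1%, 3.32% and 1.79% of all genes. In monocytes the ratios of Gda, Cd24a and Ccr1 were 0.888, 1.06 and 0.945 in lamina propria and 2.38, 0.827 and 1.26 in SILT. In macrophages they were 0.530, 0.292 and 0.463, and 0.590, 0.270 and 0.588, the same direction as in cDC2. The differences between gates have no replicate test. Endothelial cells with 5 or more Plac8 UMIs meet the marker threshold of the monocyte gate. They numbered 146, 131, 85 and 76 in lamina propria and SILT of wild type and then of Csf2-/-. The monocyte gate held 619, 861, 421 and 420 cells, and the part of endothelial cells in its ratios was not tested. For Mgl2 and Cd200r1 the macrophage ratios were 0.659 and 0.581 in lamina propria and 0.579 and 0.547 in SILT, and monocytes held too little of either gene (at most 16.2 CPM) for a comparison. The macrophage gate held 931 of the 7219 Cd209a UMIs of wild-type lamina propria. Whether single cells in it carried both programs was not tested.

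**Figure D3:**
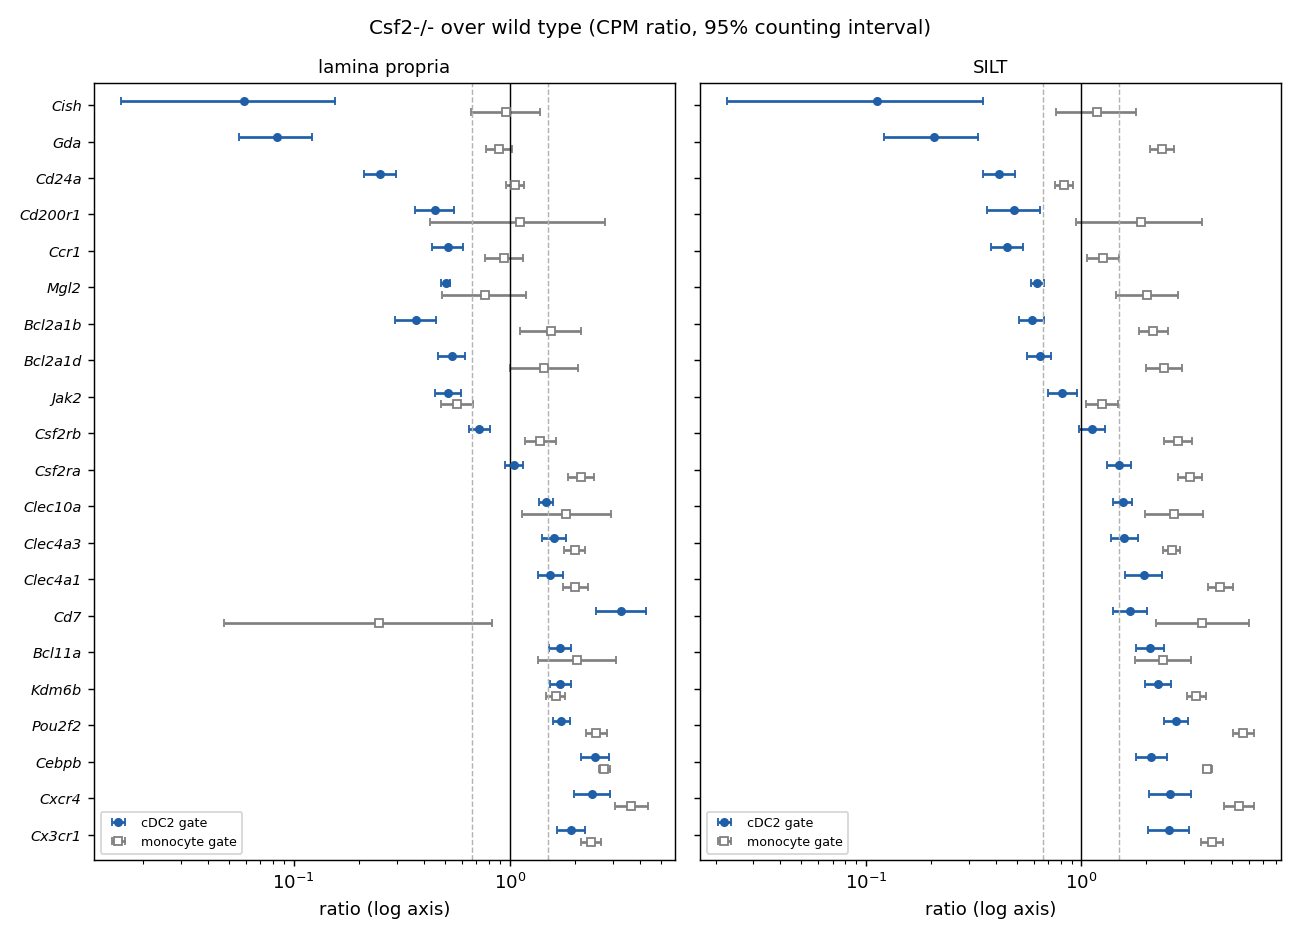
Ratio of the Csf2-/- to the wild-type level (logarithmic horizontal axis) for 21 genes in lamina propria (left) and SILT (right), blue circles for cDC2 members and open grey squares for monocytes of the same libraries, bars giving 95% counting intervals; dashed lines mark 1.5-fold and the solid line no difference. The blue points of Cish, Gda, Cd24a, Cd200r1, Ccr1, Mgl2, Bcl2a1b and Bcl2a1d lie left of the lower dashed line in both tissues. The grey squares of Cish, Gda, Cd24a and Ccr1 lie right of that line in both, and those of Mgl2 and Cd200r1 rest on at most 16.2 CPM and are not read. The monocyte gate did not keep out endothelial cells.

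Several genes of the cell cycle were lower in Csf2-/- members of both tissues. Of the compared cell cycle genes, 4 of 12 were at least 1.5-fold lower and 0 higher in lamina propria (median -0.55 log2) and 6 of 13 lower and 0 higher in SILT (median -0.55), against 9.10% and 7.38% lower over all compared genes. Mki67, which marks cycling cells, was at 245 CPM in wild-type and 29.98 CPM in Csf2-/- lamina propria, and 101 CPM in wild-type and 28.2 CPM in Csf2-/- SILT, and Top2a, the topoisomerase of dividing cells, at 183 CPM in wild-type and 33.4 CPM in Csf2-/- lamina propria, and 129.8 CPM in wild-type and 26.5 CPM in Csf2-/- SILT. Birc5 and Stmn1, genes of mitosis, had ratios of 0.257 and 0.585 in lamina propria and 0.239 and 0.378 in SILT. Counted by cell, 41 of 379 and 11 of 289 members had 5 or more UMIs of an 8-gene panel in wild-type and Csf2-/- lamina propria (10.8% and 3.81%), and 51 of 395 and 10 of 226 in SILT (12.9% and 4.42%). After thinning every member to 2000 UMIs, any panel UMI was seen in 15.0% and 6.23% in lamina propria and 16.2% and 6.19% in SILT (endothelial cells 0.670% to 2.87%), so the direction was as at full depth. Among lamina propria members of 4000 to 12000 UMIs, which leaves 90 of the 379 wild-type cells, the Birc5 and Stmn1 ratios were each 1.12.

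Histone genes followed in part. Hist1h1b, a linker histone of dividing cells, was at 171 CPM in wild-type and 9.99 CPM in Csf2-/- lamina propria, and 213 CPM in wild-type and 23.4 CPM in Csf2-/- SILT. Hist1h1e and Hist1h4d were 3.79 and 3.83-fold lower in Csf2-/- lamina propria and 4.69 and 4.05-fold lower in SILT. Unlike Mki67, these 2 were detected in many members (201 of 379 for Hist1h1e in wild-type lamina propria), and both were also lower in endothelial cells, Hist1h1e by 3.70-fold and 3.20-fold and Hist1h4d by 1.99-fold and 1.85-fold in lamina propria and SILT.

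The receptor for CSF2 was detected in members of all 4 libraries. Csf2ra, which encodes the ligand-specific α chain, was at 203 CPM in wild-type and 213 CPM in Csf2-/- lamina propria, and 124 CPM in wild-type and 185 CPM in Csf2-/- SILT, a ratio of 1.05 in lamina propria and 1.49 in SILT. Csf2rb and Csf2rb2, the shared β chain and its near-identical mouse copy, had ratios of 0.723 and 0.696 in lamina propria and 1.12 and 1.26 in SILT, and reads may be split between the 2. Csf2 itself had 1 UMI in all members together. In the list of receptor and signalling genes, 0 of 16 compared genes were higher and 5 lower in lamina propria (Jak2, Bcl2a1b, Bcl2a1d, Ccl17 and Ccl22), and 3 were higher (Stat5b, Csf1r and Ccl22) and 3 lower (Bcl2a1b, Bcl2a1d and Ccl17) of 17 in SILT, with medians of -0.11 and 0.16 log2. Of all compared genes, 3.26% were higher and 9.10% lower in lamina propria (median -0.08) and 7.45% and 7.38% in SILT (median -0.01). Jak2, the kinase bound to the β chain, had a ratio of 0.518 (0.451 to 0.593) in lamina propria and 0.816 (0.697 to 0.953) in SILT. Bcl2a1b and Bcl2a1d, copies of the survival gene A1, had ratios of 0.367 and 0.539 in lamina propria and 0.587 and 0.639 in SILT; how reads divide among the A1 copies is uncertain. Socs3 and Pim1, further targets of cytokine signalling, did not pass 1.5-fold, with ratios of 1.07 and 1.16 in lamina propria and 0.917 and 1.36 in SILT.

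Of the cDC lineage genes, 1 of 12 compared was higher (Bcl11a) and 1 lower (Havcr2) in lamina propria, and 1 of 13 higher (Bcl11a) and 1 lower (Id2) in SILT. Zbtb46 had ratios of 0.881 (0.724 to 1.07) and 1.12 (0.886 to 1.41), Sirpa, the signal-regulatory receptor of cDC2, 0.972 and 1.31, and Itgam, which encodes CD11b, 0.838 and 1.27 in lamina propria and SILT. Irf4, the factor that drives the type 2 branch, had ratios of 0.768 (0.670 to 0.879) and 1.37 (1.10 to 1.70). Irf8, the factor of type 1 cells, was at 36.0 CPM in wild-type and 71.5 CPM in Csf2-/- lamina propria, and 70.1 CPM in wild-type and 96.8 CPM in Csf2-/- SILT; its level was higher in members without Cd209a, described below, and among lamina propria members of 4000 to 12000 UMIs its ratio was 0.717. In SILT, 5 of 23 compared transcription factors of the cDC2 list were higher, among them Zeb2 (1.77) and Notch2 (1.60), and 0 lower, against 7.45% and 7.38% of all compared genes; in lamina propria 2 of 24 were higher and 2 lower, against 3.26% and 9.10%, and Zeb2 was at a ratio of 0.984.

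Of 14 genes of class II presentation, 2 were higher and 1 lower in Csf2-/- lamina propria and 3 higher and 1 lower in SILT, with medians of 0.25 and 0.27 log2 (all compared genes -0.08 and -0.01). The shares over all compared genes were 3.26% higher and 9.10% lower in lamina propria and 7.45% and 7.38% in SILT. The lower gene was H2-DMb2 in both, a chain of the peptide editor H2-DM, at 251 CPM in wild-type and 152 CPM in Csf2-/- lamina propria, and 352 CPM in wild-type and 228 CPM in Csf2-/- SILT. H2-Oa and H2-Ob, the chains of the editor's inhibitor H2-DO, had ratios of 1.60 and 1.48 in lamina propria and 1.33 and 1.79 in SILT. Lgmn, a lysosomal protease, was 1.72 and 1.78-fold higher. The most abundant class II genes were slightly higher, with Cd74 ratios of 1.22 and 1.12 and H2-Aa ratios of 1.21 and 1.24.

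Purinergic genes, which the study's title names, were sparse. Of 19 on the list, 6 could be compared in each tissue. P2rx4, an ATP-gated channel, was at 72.5 CPM in wild-type and 103 CPM in Csf2-/- lamina propria, and 41.4 CPM in wild-type and 84.6 CPM in Csf2-/- SILT, and Entpd1 (CD39), which breaks down ATP, at 73.9 CPM in wild-type and 52.2 CPM in Csf2-/- lamina propria, and 63.8 CPM in wild-type and 36.5 CPM in Csf2-/- SILT, so in SILT the first was 2.04-fold higher (1.67 to 2.51) and the second 1.75-fold lower (1.37 to 2.26), while in lamina propria neither reached 1.5-fold.

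The counts of other lists are set against 3.26% higher and 9.10% lower over all compared genes in lamina propria and 7.45% and 7.38% in SILT. Of genes reported for the cDC2B and DC3 subsets, 3 of 11 compared were higher and 1 lower in lamina propria (median -0.07 log2) and 5 of 11 higher and 1 lower in SILT (median 0.58), with Cx3cr1 among the higher and Mgl2 as the lower one. Of costimulation and checkpoint genes, 1 of 16 were higher and 2 lower in lamina propria and 4 of 16 higher and 0 lower in SILT. Of interferon response genes, 2 of 6 were higher in lamina propria, among them Xaf1, an interferon-induced apoptosis factor, at 22.2 CPM in wild-type and 54.7 CPM in Csf2-/- lamina propria, and 30.3 CPM in wild-type and 44.3 CPM in Csf2-/- SILT, and 0 of 8 in SILT. Of integrins and adhesion genes, 4 of 17 were lower and 0 higher in lamina propria, and 5 lower and 5 higher of 18 in SILT.

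Some ratios rest on a handful of cells. The 12 genes most clearly lower in Csf2-/- SILT members were Plpp3, Ptprb, Hist1h1b, Hist1h2ab, Col4a1, Serpinb6a, Tm4sf1, Hist1h1e, Top2a, Hist1h4d, Mki67 and Ly6a. Of these, Plpp3, Ptprb, Col4a1, Tm4sf1 and Ly6a are known from endothelial cells, and they had ratios of 0.0459 to 0.302. The endothelial marker sum was 802 and 101 CPM in these 2 libraries. When members with 10 or more UMIs of 1 other cell class were left out, the Tm4sf1 ratio was 1.01 and that of Plpp3 0.278. A further group of members held 10 or more UMIs of Retnla, Lpl and Fn1, genes of a macrophage program: 33 of 379, 15 of 395, 8 of 289 and 1 of 226 in lamina propria and SILT of wild type and then of Csf2-/-. In wild-type lamina propria these cells had Cd209a at 485 CPM and Ccl17 at 370.1 CPM. With all 3 kinds of doubtful cells left out (no Cd209a UMI, other cell class, Retnla program), 321, 271, 242 and 177 members remained, and the ratios of Ccl17, Cish, Gda, Cd24a and Mgl2 were 0.0134, 0.0628, 0.0915, 0.239 and 0.515 in lamina propria and 0.0104, 0.0544, 0.283, 0.283 and 0.526 in SILT.

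The second comparison set SILT against lamina propria. In wild type, 651 of 5675 compared genes (11.5%) were at least 1.5-fold higher and 1264 (22.3%) lower in SILT members, with a median log2 ratio of -0.15. In Csf2-/- mice, 188 of 5422 (3.47%) were higher and 248 (4.57%) lower, with a median of -0.06. With TMM factors the counts were 863 higher and 932 lower in wild type and 279 and 178 in Csf2-/-. The wild-type counts include the lamina propria library that stood apart for Lars2, so genes past 1.5-fold in both genotypes are given first. The tissue comparisons of the 2 genotypes share no library, but each shares a library with each genotype comparison. Higher in SILT in both were Acp5, Gstp1, Ass1, AW112010, Ltb, Cd7, Sec61b, Mdh2 and Fabp5. Lower in both were Irf4, Il1rl1, Tppp3, Ccl9, Fosb, Egr1, Tnfaip3 and Socs3.

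Among the genes higher in SILT, Ltb encodes lymphotoxin β, a cytokine that organises lymphoid tissue, and was at 25.9 CPM in lamina propria and 96.5 CPM in SILT of wild-type mice, and 43.7 CPM and 72.0 CPM in those of Csf2-/- mice, a ratio of 3.72 (3.09 to 4.50) in wild type and 1.65 (1.31 to 2.08) in Csf2-/-. Cd7, given above, had tissue ratios of 3.81 and 1.96. Lymphocyte markers moved with both genes: from lamina propria to SILT the T, NK and innate lymphoid sum went from 72.0 to 137 CPM in wild type and from 45.0 to 141 CPM in Csf2-/-, and the B and plasma cell sum from 352 to 1343 and from 402 to 1077 CPM. In Csf2-/- SILT, 97 of the 324 UMIs of the T, NK and innate lymphoid sum lay in 1 cell. Its top gene there was Ccl5, which is also on the migratory dendritic cell list. The part of these markers was not tested. Ass1, the argininosuccinate synthase that remakes arginine, was at 31.4 CPM in lamina propria and 128 CPM in SILT of wild-type mice, and 39.0 CPM and 102 CPM in those of Csf2-/- mice. Acp5, a tartrate-resistant acid phosphatase, was at 9.73 CPM in lamina propria and 64.5 CPM in SILT of wild-type mice, and 16.6 CPM and 38.6 CPM in those of Csf2-/- mice, but macrophages of the same libraries held it at 38.0, 346, 93.1 and 269 CPM and it was 9.11 and 2.89-fold higher in SILT there. Fabp5, a fatty acid carrier, had ratios of 3.07 and 5.29. Sec61b, a subunit of the translocon, was at 383 CPM in lamina propria and 1016 CPM in SILT of wild-type mice, and 410.0 CPM and 914 CPM in those of Csf2-/- mice, and Mdh2, the mitochondrial malate dehydrogenase, had ratios of 2.73 and 2.01. Psme2, of the proteasome activator PA28, Ifi30, the lysosomal thiol reductase, and Relb, a transcription factor of maturing dendritic cells, were higher by 1.95, 1.63 and 1.91-fold in wild type and 1.93, 1.59 and 1.69-fold in Csf2-/-. Gstp1, a glutathione transferase, and AW112010 had ratios of 4.58 and 4.02 in wild type and 1.69 and 2.04 in Csf2-/-.

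In Csf2-/- the gene with the most clearly higher level in SILT was Bcl2a1b, at 87.7 CPM in lamina propria and 216 CPM in SILT of wild-type mice, and 32.2 CPM and 127 CPM in those of Csf2-/- mice, followed by Ass1, Sec61b, Tbc1d4, Mdh2, Psme2, AW112010, Spint1, Snhg3, Bcl3, Cd7 and Cstb. Their ratios ran from 1.84 to 3.94, and 10 of the 12 were also past 1.5-fold higher in wild type, where 11.5% of all compared genes were. Bcl2a1b was higher in members without Cd209a in every library, and among members with at least 1 Cd209a UMI its Csf2-/- tissue ratio was 3.78.

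Il22ra2 encodes IL-22 binding protein, a soluble decoy that dendritic cells and macrophages of gut lymphoid tissue secrete. Its level in members was 3.76 CPM in lamina propria and 139.6 CPM in SILT of wild-type mice, and 0.312 CPM and 126 CPM in those of Csf2-/- mice, from 22, 641, 1 and 290 UMIs in 2, 56, 1 and 12 cells. In Csf2-/- SILT, 121 of the 290 UMIs lay in 1 cell. The level was highest in members without Cd209a, at 402 CPM in wild-type and 616 CPM in Csf2-/- SILT, against 10.5 and 4.86 CPM in members with at least 3 Cd209a UMIs. Most Il22ra2 UMIs of the SILT libraries lay in macrophages (3333 of 5127 in wild type and 565 of 1010 in Csf2-/-), and members held 12.5% and 28.7%. Endothelial cells of those libraries had 3.02 and 0.981 CPM, so the level in Cd209a-rich members of wild-type SILT was 3.49-fold over that background.

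Irf4 was lower in SILT in both genotypes. It stood at 124 CPM in lamina propria and 45.7 CPM in SILT of wild-type mice, and 94.9 CPM and 62.5 CPM in those of Csf2-/- mice, a ratio of 0.370 (0.316 to 0.432) in wild type and 0.658 (0.536 to 0.805) in Csf2-/-. Of the cDC2 transcription factors, 2 of 23 were higher and 10 lower in wild-type SILT, and 2 of 24 higher and 1 lower in Csf2-/- SILT, the latter being Irf4. Over all compared genes 11.5% were higher and 22.3% lower in wild type and 3.47% and 4.57% in Csf2-/-. Zeb2 had ratios of 0.395 and 0.709. Klf4 and Klf6, Krüppel-like factors of myeloid cells, had ratios of 0.547 and 0.535 in wild type and 0.822 and 0.697 in Csf2-/-. Runx3, a factor of dendritic cell and lymphocyte development, went the other way with 1.47 and 1.51. Of the surface genes, 1 of 17 was higher and 6 were lower in wild-type SILT, where 22.3% of all genes were lower, among them Sirpa (0.614), Mgl2 (0.656) and Itgam (0.448); in Csf2-/- the ratios of these 3 were 0.827, 0.813 and 0.679, and 1 of 17 genes was higher and 1 lower. Ccr2, the monocyte chemokine receptor that also carries a reporter allele here, had ratios of 0.537 and 0.808. Ccr7, the receptor for migration to lymph nodes, was at 8.54, 11.8, 1.25 and 6.08 CPM in lamina propria and SILT of wild type and then of Csf2-/-, too few UMIs for a comparison after Fscn1-bearing cells had been kept out by the rule.

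Il1rl1, which encodes the IL-33 receptor ST2, was at 103 CPM in lamina propria and 33.1 CPM in SILT of wild-type mice, and 59.0 CPM and 27.8 CPM in those of Csf2-/- mice, so SILT members of both genotypes held less, with ratios of 0.320 (0.266 to 0.383) and 0.471 (0.349 to 0.628). Tppp3, a tubulin-binding protein, had ratios of 0.363 and 0.447, and it was also lower in Csf2-/- than in wild-type members, at 0.392 in lamina propria and 0.484 in SILT. Ccl9, a myeloid chemokine, was at 328 CPM in lamina propria and 104 CPM in SILT of wild-type mice, and 309 CPM and 191 CPM in those of Csf2-/- mice. Cd44, the hyaluronan receptor, and Emp1, an epithelial membrane protein, were 3.03 and 3.22-fold lower in wild-type SILT and 1.48 and 1.27-fold lower in Csf2-/- SILT. Neat1, a nuclear noncoding RNA, and Ahnak, a large scaffold protein gene, were 3.38 and 2.90-fold lower in wild-type SILT; in Csf2-/- the values were 1.54 and 1.40. Rnf150, Tiam1 and Plec belong to the same 12, with wild-type ratios of 0.314, 0.334 and 0.363. Macrophages of the wild-type libraries showed all 12 of these lowest genes past 1.5-fold lower in SILT, and monocytes 9 of 12, against 20.8% and 35.4% of all genes compared in those gates.

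Several immediate early genes, which respond within minutes to stimulation or to cell isolation, were lower in SILT in both genotypes. Of 22 immediate early and heat shock genes, 9 were at least 1.5-fold lower and 0 higher in wild type (22.3% of all genes lower, median -0.37 log2, against -0.15 over all compared genes), and 5 lower and 0 higher in Csf2-/- (4.57% of all genes lower, median -0.38, against -0.06). Egr1 was at 1043 CPM in lamina propria and 474 CPM in SILT of wild-type mice, and 1082 CPM and 555 CPM in those of Csf2-/- mice, and Fosb at 1456 CPM in lamina propria and 534 CPM in SILT of wild-type mice, and 1151 CPM and 756 CPM in those of Csf2-/- mice. Dusp1, a phosphatase of the same response, had ratios of 0.632 and 0.567, and Nr4a1 of 0.667 and 0.548. Socs3 and Tnfaip3, inhibitors of cytokine and NF-κB signalling, were lower too, with ratios of 0.529 and 0.513 in wild type and 0.456 and 0.510 in Csf2-/-. In monocytes Egr1 had ratios of 0.525 and 0.537 and Dusp1 of 0.550 and 0.830. The time and manner of tissue dissociation are not given in the sources used here, and their part in these values was not tested. Tnfsf9 (4-1BBL), Irf1, Sowahc, Egr2 and Nr4a2 were among the 12 lowest in Csf2-/- SILT with ratios of 0.465, 0.480, 0.520, 0.502 and 0.508, and in wild type they stood at 0.836, 0.885, 0.650, 0.517 and 0.641.

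**Figure D4:**
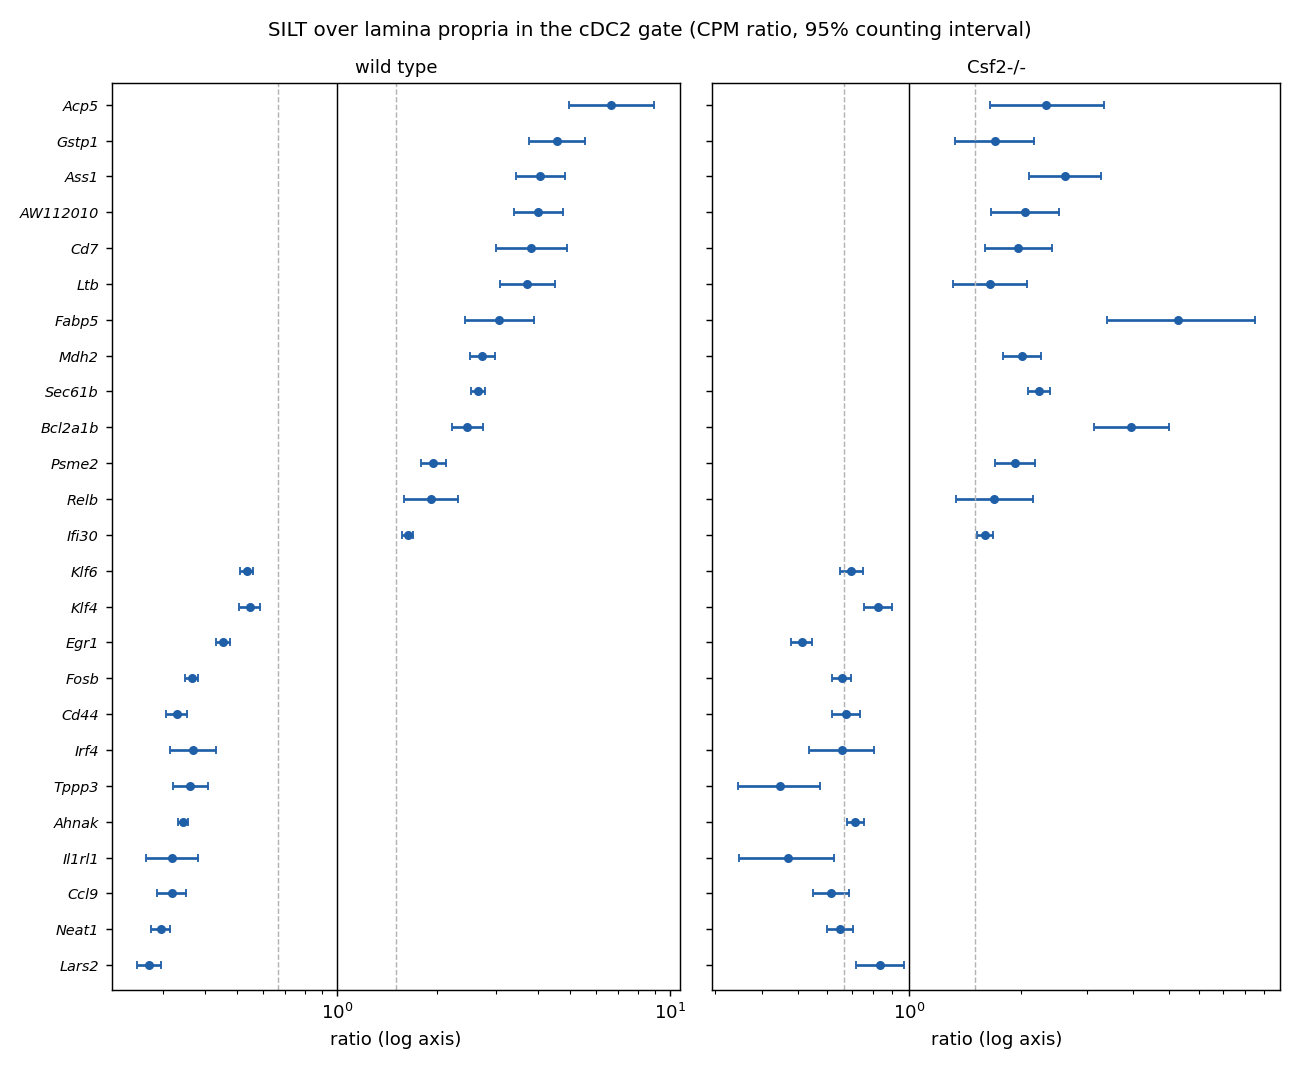
Ratio of the SILT to the lamina propria level in cDC2 members (logarithmic horizontal axis) for 25 genes, wild type left and Csf2-/- right, bars giving 95% counting intervals, dashed lines 1.5-fold and the solid line no difference. The genes from Acp5 to Ifi30 lie right of the solid line and those from Klf6 to Lars2 left of it in both panels, and for Lars2, Neat1 and Ahnak the wild-type points are farther out (0.273, 0.296 and 0.344) than the Csf2-/- points (0.833, 0.651 and 0.715).

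Members also differed among themselves, and Cd209a, a C-type lectin of the DC-SIGN group, gave a simple split. At least 3 Cd209a UMIs were found in 306, 249, 220 and 162 members of lamina propria and SILT of wild type and then of Csf2-/-, and none in 30, 92, 37 and 39. Members without Cd209a were thus 7.92% and 12.8% of the lamina propria members and 23.3% and 17.3% of the SILT members of wild-type and Csf2-/- mice. Because Cd209a was part of the rule, what follows is a description. Of 2257 genes with enough UMIs that the naming rule did not leave out, 17 were at least 1.5-fold higher in Cd209a-rich members in all 4 libraries and 10 at least 1.5-fold lower.

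Cd209a-rich members held more of the other lectins. Mgl2 was at 1310.2, 1097, 651 and 633 CPM in them and at 291, 148, 253 and 48.4 CPM in members without Cd209a. Clec10a was at 283, 249, 429.7 and 361 CPM against 48.8, 34.8, 176 and 44.0 CPM. So the genotype pattern of the pair was present within Cd209a-rich members, where Mgl2 was lower and Clec10a higher in both Csf2-/- libraries. Klrb1b, an NK-type lectin, Krt80, a keratin, Fcgrt, the neonatal Fc receptor, Trf, transferrin, Wfdc17, a secreted inhibitor, Kif23, a kinesin, and Emp1 were higher in Cd209a-rich members as well, each at least 1.64-fold in every library.

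Members without Cd209a held more Id2, an inhibitor of E proteins, at 397, 619.7, 542 and 601 CPM against 156, 186, 143 and 75.4 CPM. Irf8, which had too few UMIs to count among the 10, was at 123, 168, 309 and 279 CPM in them and at 28.1 to 48.6 CPM in Cd209a-rich members. Cxcl2, Tbc1d4, Bcl2a1b, Anxa3, Lyz1, Lyst, Prdx5, Pgk1 and Slc3a2 were also higher in them, by at least 1.56-fold in every library. In wild-type lamina propria they held Fn1, Retnla, Lpl and Lyz1 at 3290, 1610, 1432 and 2141 CPM. Cd209a-rich members there had 112, 25.4, 77.8 and 20.1 CPM. The other libraries had lower levels of these genes in members without Cd209a. In Csf2-/- SILT, Fn1 was at 13.2 CPM in them and at 60.8 CPM in Cd209a-rich members. Plac8, a gene of monocytes and plasmacytoid cells, was at 1057 and 1162 CPM in SILT members without Cd209a and at 221 and 396 CPM in Cd209a-rich ones. Zbtb46 did not follow the split, with 55.6, 41.1, 50.1 and 43.8 CPM in Cd209a-rich members and 55.2, 57.2, 53.7 and 66.0 CPM in those without. Members without Cd209a thus had as much Zbtb46 and less Clec10a and Mgl2, and for them the label cDC2 rests on Flt3, Klrd1 and Tnip3 alone.

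**Figure D5:**
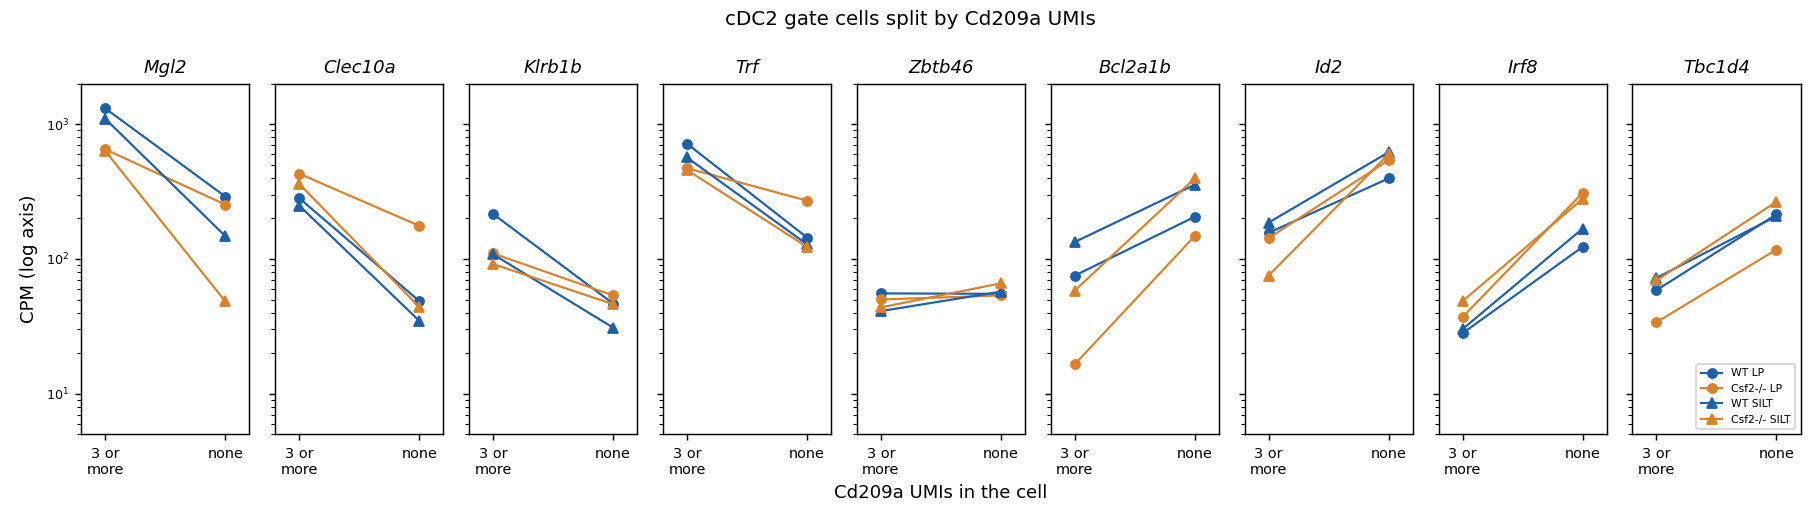
Levels of 9 genes (CPM, logarithmic vertical axis) in cDC2 members with at least 3 Cd209a UMIs (left point) and with none (right point), 1 line per library, wild type (WT) blue and Csf2-/- orange, circles for lamina propria (LP) and triangles for SILT. Mgl2, Clec10a, Klrb1b and Trf fall from left to right in all 4 libraries, Zbtb46 stays between 41.1 and 66.0 CPM, and Bcl2a1b, Id2, Irf8 and Tbc1d4 rise.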

How the data were processed

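Single-cell RNA of CD11b-selected colon cells was deposited as 1 matrix of UMI counts per library (32285 features, 10x 3' chemistry per the labels' protocols). The authors made these counts with Cell Ranger 2.1.1 on mm10, per the submitters' processing notes, while the file headers name cellranger 6.0.0. The lowest total of a barcode was 500 to 502 UMIs in each library, and how barcodes were called is not given in the sources used here. The wild-type libraries held 50017502 UMIs in 5128 barcodes (lamina propria) and 67656927 in 8041 (SILT), those of Csf2-/- mice 19225644 in 2158 and 21225800 in 2578. Whether each library pools mice is not stated.

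UMIs of the members were summed per library and gene, divided by the members' total (CPM), and compared as ratios, with nothing added to the counts. No p-value was computed, each group being 1 library. Levels carry exact Poisson, shares exact binomial and ratios exact conditional binomial intervals at 95%, which cover counting error only. The smallest level that 3 counts give is 0.512 to 1.30 CPM. The interval was tested on simulated Poisson counts, where it covered the true ratio in 94.5% to 96.5% of genes changed 2-fold over the 4 comparisons. The interval assumes such counts, so that check does not cover genes whose UMIs are spread unevenly over cells. Shares of cells with a UMI were also taken after thinning each cell to 2000 UMIs, and no member was below that.

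Other gates, used side by side, were type 1 dendritic cells (Xcr1 plus Clec9a at least 2), migratory dendritic cells (Fscn1 at least 4), monocytes (Ly6c2, Ms4a4c and Plac8 at least 4, C1q at most 14, not cDC2), macrophages (C1q at least 30) and endothelial cells (Pecam1, Cdh5 and Plvap at least 4, no Ptprc). The monocyte gate set no limit on endothelial markers, so endothelial cells with enough Plac8 could also fall into it. Doublets were kept, as the rule is written. Scrublet (scanpy 1.11.5, at 0.8% per 1000 cells) called 52, 136, 7 and 10 barcodes, in the library order above, which held 2, 13, 0 and 0 members. In the Csf2-/- libraries these are so few that the caller says little.

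The members and the 20 gene lists were chosen with earlier results of these data known. Named genes are, per comparison, the 12 highest and 12 lowest by the interval bound nearest to 1, with at least 50 CPM in 1 library, leaving out genes of the rule, of other cells' marker lists, mitochondrial, ribosomal, immunoglobulin, T cell receptor, haemoglobin and sex-linked reference genes, predicted genes, genes already described, and genes with over 25% of their UMIs in 1 cell. To these come the 2 extreme members of each list and a set of always-named dendritic cell genes. Other genes, among them Cish, Jak2, Socs3, Pim1, Cd300c2, Clec4a3, Cd200r1, Ccr1, Cd81 and Stmn1, were chosen after their values were seen.

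Alternatives changed the gate threshold (3 or 6 UMIs), the C1q ceiling, the depth of cells, the scaling (edgeR 4.0.16 TMM factors, or CPM without mitochondrial and ribosomal genes), the level filter, and the cells kept. Analysis used Python 3.11.15, numpy 2.4.6, scipy 1.17.1, pandas 2.3.3 and R 4.3.3. Promoter windows are RefSeq's on GRCm38.p6. Some genes that the naming rule takes are not reported here.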

Additional observations from a re-analysis of the deposited data

Results flagged for a closer look

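For 8 genes the libraries of the 2 tissues, or of the 2 genotypes, differed in opposite directions; none of these differences was tested, since each group is 1 library.

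Ccl22, a chemokine gene related to Ccl17, was at 75.8 CPM in wild-type and 4.68 CPM in Csf2-/- lamina propria, and 14.2 CPM in wild-type and 55.1 CPM in Csf2-/- SILT, so its log2 genotype ratio was 5.98 higher in SILT than in lamina propria, and by the same numbers its log2 tissue ratio was lower in wild type than in Csf2-/- (difference -5.98). In Csf2-/- SILT, 115 of its 127 UMIs lay in 1 cell. Apol7c, an apolipoprotein L gene of dendritic cells, was at 20.7 CPM in wild-type and 0.312 CPM in Csf2-/- lamina propria, and 31.2 CPM in wild-type and 113 CPM in Csf2-/- SILT, a difference of 7.91 in log2 genotype ratio, with up to 110 of 261 UMIs in 1 cell of Csf2-/- SILT and 1 UMI in all of Csf2-/- lamina propria. Cxcl9, an interferon-induced chemokine gene, was at 0.171 CPM in wild-type and 3.44 CPM in Csf2-/- lamina propria, and 46.8 CPM in wild-type and 2.17 CPM in Csf2-/- SILT, a difference of -8.76, and 183 of its 215 wild-type SILT UMIs lay in 1 cell, against 1 UMI in wild-type lamina propria.

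Acp5 and Gstp1 were higher in Csf2-/- lamina propria and lower in Csf2-/- SILT, with genotype ratios of 1.70 and 1.63 in lamina propria and 0.599 and 0.604 in SILT, differences of -1.51 and -1.43 on the log2 scale. Their highest cells held 18 of 296 and 69 of 495 UMIs in wild-type SILT.

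Ccl17 was lower in SILT than in lamina propria in wild type (86.7 and 168 CPM) and higher in Csf2-/- (12.2 and 1.25 CPM), a difference of -4.24 in log2 tissue ratio that rests on the 1 Csf2-/- cell with 25 UMIs. Plpp3 and Tm4sf1, genes known from endothelial cells, were higher in SILT in wild type (ratios 2.56 and 3.64) and lower in Csf2-/- (0.300 and 0.574), differences of 3.09 and 2.67. The endothelial marker sum in members moved with them, at 431 CPM in lamina propria and 802 CPM in SILT of wild type, and 148 and 101 CPM in those of Csf2-/-; its part was not tested.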

How the results depend on the processing

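With 1 library per group no library could be left out, and mouse, library and group cannot be told apart. No paired analysis was possible because each group is 1 library and the labels give no replicate numbers. Over all alternatives the Csf2-/- to wild-type ratio stayed below 1 for Ccl17, Cish, Gda, Cd24a, Mgl2, Cd200r1 and Ccr1 and above 1 for Clec10a, Cebpb and Cxcr4 in both tissues. Depth limits the scarce genes: in Csf2-/- lamina propria and SILT, Cish rests on 4 and 3 UMIs, Aldh1a2 on 13 and 7 and Ccr7 on 4 and 14. The planned removal of members with 3 or more UMIs of other cells' markers left 9, 0, 36 and 2 members and gave no value; the alternatives that removed members without Cd209a, of other classes, with the Retnla program or in cycle were chosen after seeing the data. Where no reason is named below, the cause was not tested.

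The share of cDC2 in wild-type lamina propria (9.78%) was 5.20% among cells of 4000 to 12000 UMIs, 8.72% without cycling members and 8.28% with all doubtful members left out (no Cd209a, other class, Retnla program). In wild-type SILT (6.42%) it was 5.48% at 6 UMIs, 7.82% among cells of at least 4000 UMIs, 7.38% at 4000 to 12000 UMIs, 4.93% with at least 1 Cd209a UMI, 5.79% without other classes, 5.59% without cycling members, 4.41% with all doubtful members left out and 5.72% after thinning to 2000 UMIs. In Csf2-/- lamina propria (16.1%) it was 14.1% with at least 1 Cd209a UMI and 13.5% without doubtful members. In Csf2-/- SILT (11.4%) it was 12.97% at 4000 UMIs or more, 14.2% at 4000 to 12000 UMIs, 9.42% with Cd209a and 8.91% without doubtful members. The shares fell where members were removed by construction.

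The number of genes past 1.5-fold followed the level filter. With a mean of at least 50 CPM it was 150 higher and 132 lower for genotype in SILT, 88 and 221 in lamina propria, 353 and 613 for tissue in wild type and 87 and 83 in Csf2-/-. With any gene that had 1 UMI in both libraries it was 2007 and 2618, 1688 and 2738, 2752 and 3602, and 1313 and 1836 in the same order. Without mitochondrial and ribosomal UMIs, 624 genes were higher in Csf2-/- SILT and 360 in Csf2-/- lamina propria, and TMM factors gave 278 in the latter. Among members of 4000 to 12000 UMIs, 372 were higher in Csf2-/- lamina propria, 114 of them shared with the 185, and 287 higher and 420 lower in Csf2-/- SILT against lamina propria. Neither scaling moved the median of all genes by more than 0.0911 on the log2 scale.

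Of the recomputed log2 ratios, 6733 stayed within the counting interval of the reported value, 861 moved beyond it and 37 that had been past 1.5-fold changed sign. These 37 follow. Among members of 4000 to 12000 UMIs, Cd7 was at -0.040 for genotype in SILT; Smc2 at 0.49, Birc5 and Stmn1 at 0.16, Irf8 at -0.48 and Acp5 at -0.22 for genotype in lamina propria; and Mki67 at 0.13, Plpp3 at -0.93, Ptprb at -0.26, Apol7c at -0.0088, Aldh1a2 at 0.21 and Irf8 at -0.16 for tissue in wild type. Without cycling members, which removes the cells that carry these genes, Birc5 and Hist1h2ab were at 0.20 and 0.47 for genotype in SILT and Top2a and Stmn1 at 0.16 and 0.99 in lamina propria. Without members of other classes Tm4sf1 was at 0.0092 for genotype in SILT and Plpp3 and Ptprb at -0.20 and -0.37 for tissue in wild type, and without Scrublet's doublets Ptprb was at -0.28. With all doubtful members left out Tm4sf1 was at 0.48, Ccl22 at -2.93 and Apol7c at -1.36 for genotype in SILT; Plpp3 at -0.37, Ptprb at -0.29, Serpinb6a at -0.029 and Aldh1a2 at 0.057 for tissue in wild type; and Ccl17 at -0.37, Tm4sf1 at 0.14 and Ccl22 at -1.37 for tissue in Csf2-/-. With at least 1 Cd209a UMI, Ccl22 and Apol7c were at -3.22 and -1.38 for genotype in SILT, and Ccl17 and Ccl22 at -0.40 and -1.51 for tissue in Csf2-/-. With C1q of at most 5 UMIs, Ccl22 was at -1.49 for genotype in SILT and Ccl17 at -0.54 for tissue in Csf2-/-, and with each library's highest cell removed Ccl22 was at -1.09 for genotype in SILT, since 1 cell held most of its UMIs.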
